A study of Mus musculus with 8 samples.

Results

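The insulin-like growth factor (IGF) system of the embryonic mouse ventricle was read here through 10 genes chosen by name: the ligand genes Igf1 and Igf2, the receptor genes Igf1r, Igf2r and Insr, the binding protein genes Igfbp2, Igfbp3, Igfbp4 and Igfbp5, and the noncoding RNA gene H19. All 10 were found among the 55291 genes of the count table, and all 10 were tested, together with every gene whose 8 libraries held at least 8 counts in sum (26820 genes). The libraries were made from polyA RNA of ventricular tissue at E10.5, 4 from Pkn2 fl/fl embryos that carried XMLC2-Cre (cKO) and 4 from Cre-negative Pkn2 fl/fl littermates (control), on a C57BL/6N background (C57BL/6 in the strain label). Both groups therefore carry the floxed Pkn2 alleles, and Cre is driven in cardiomyocytes, so that the other cells of the ventricle in the cKO embryos keep Pkn2. The labels call the 4 libraries of a group biological replicates and do not say how many embryos each held. The question of the comparison was which RNAs differ in the ventricle when cardiomyocytes lose Pkn2, a serine/threonine kinase of the PKC-related family.

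IGF1 and IGF2 are secreted growth factors that signal through the receptor tyrosine kinase IGF1R and, for IGF2, also through an isoform of the insulin receptor, and both receptors act on the PI3K-AKT and RAS-ERK pathways. IGF2R binds IGF2 without kinase signalling and carries it to lysosomes, and the IGF binding proteins hold the ligands outside the cell until proteases release them. Igf2 is known as a main fetal growth factor, expressed from the paternal allele, and it shares its imprinted locus with H19, which is expressed from the maternal allele and abundant in embryonic mesoderm.

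All positions below are those of GRCm38, the build whose gene starts the deposited positions follow. H19 (ENSMUSG00000000031.16) lies at chr7:142575529-142578143 on the minus strand, and Igf2 (ENSMUSG00000048583.16) at chr7:142650766-142666816 on the same strand. Each of the 2 genes hosts a microRNA. Their mature sequences, from RefSeq (GRCm38.p6), are shown because they are the short products of this locus that polyA libraries do not measure. Capitals mark the seed, bases 2 to 8.
mmu-miR-675-3p: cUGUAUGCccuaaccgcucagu
mmu-miR-675-5p: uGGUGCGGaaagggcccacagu
mmu-miR-483-3p: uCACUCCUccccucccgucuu
mmu-miR-483-5p: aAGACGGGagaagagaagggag
The first pair lies inside H19 at chr7:142577078-142577099 and chr7:142577112-142577133, and the second pair inside Igf2 at chr7:142654932-142654952 and chr7:142654968-142654989. No seed was shared between them. Mir675 had 0 counts in all 8 libraries while its TPM (the deposited abundance per transcript length) was between 9.76 and 31.1, and Mir483 had 54 to 92 counts per library. Their precursors are parts of the host gene, so neither value is a measure of the mature microRNA.

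RefSeq promoter entries were matched for 8 of the 10 members, all but Insr and H19, and gave 12 windows of 250 bases upstream of a start. Of these, the windows of the most abundant receptor gene and, for 1 of its starts, the most abundant ligand gene are printed. Both hold searched motifs, and no run of 30 of their bases was found in an annotated transcript. They do lie within annotated gene spans, the Igf2 window in Igf2 itself and the Igf2r window in the noncoding gene Airn. Igf2r is at chr17:12682406-12769664 (ENSMUSG00000023830.14, minus strand). The windows are chr17:12769707-12769956 and chr7:142657497-142657746, both on the minus strand, and capitals mark motifs found on either strand.
Igf2r: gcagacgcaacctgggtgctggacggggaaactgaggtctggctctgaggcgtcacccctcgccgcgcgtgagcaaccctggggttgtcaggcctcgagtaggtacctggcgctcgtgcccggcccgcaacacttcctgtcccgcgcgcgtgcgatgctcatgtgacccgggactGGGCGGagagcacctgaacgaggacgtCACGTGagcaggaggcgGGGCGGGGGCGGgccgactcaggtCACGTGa
Igf2: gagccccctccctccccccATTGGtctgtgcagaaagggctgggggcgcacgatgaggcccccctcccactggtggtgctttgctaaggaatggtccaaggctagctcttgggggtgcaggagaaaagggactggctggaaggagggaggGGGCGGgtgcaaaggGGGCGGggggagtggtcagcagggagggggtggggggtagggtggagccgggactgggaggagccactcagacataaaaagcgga
Among the motifs searched, the TATA box (TATAAA) was in 1 of the 12 windows and in 12.4% of 32851 promoter windows of the same length. The CCAAT box (CCAAT) was in 2 of the 12 and in 33.8% of all, and the GC box (GGGCGG) in 5 of the 12 and in 32.7% of all. The E-box (CACGTG) was in 2 of the 12 and in 6.02% of all. No match overlaps another in the windows shown. The Igf2r window held 27 CpG, where the median of all windows was 6. The window of Igfbp3 held 32 CpG and none of the motifs, and that of Igf1 held 5 CpG and a CCAAT.

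Libraries held 47559845 to 56660938 counts, and no pair within a group was a copy of a single library (chi-square per degree of freedom 11.9986 to 39.1 over 12 pairs). Pkn2 itself was at 77.6 to 84.3 CPM (counts scaled to the TMM-adjusted library size) in cKO and 133 to 153 CPM in control libraries, a log2 fold change of −0.83 ± 0.060 (SE; edgeR adjusted p = 7.67e-06). Exons that Cre does not remove are still counted in this value. Fitted with edgeR (quasi-likelihood, p-values adjusted by Benjamini-Hochberg), 230 genes were called at an adjusted p of at most 0.05 (0.858% of genes tested), 138 of them higher in cKO (0.515%), and 98 (0.365%) also passed a fold change of 1.5. The groups did not overlap in CPM at 1853 genes (6.91%). Of 12 defining markers of cardiomyocytes none was at 0, with a summed level of 36547 to 38425 CPM in cKO and 36936 to 40561 CPM in control libraries. Of these markers 8 were lower and 4 higher in cKO, and edgeR called 0 and DESeq2 1. In the edgeR fit 3 were at an unadjusted p under 0.05 (12.8% of all genes tested). They were Nkx2-5 (log2 fold change −0.32 ± 0.089, SE, edgeR adjusted p = 0.109) and Tnni1 (−0.15), which were lower, and Nppa (0.20), which was higher. The groups did not overlap at 1 marker, Nkx2-5. RNA of other cells was present too: endothelial and endocardial markers summed to 1594 to 2559 CPM and epicardial markers to 368 to 557 CPM. In bulk tissue, fewer cells of a type and less RNA per cell cannot be told apart.

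Of the 10 IGF system genes, 1 passed the threshold, Igf1, which was 1.45-fold higher in cKO ventricles. Igfbp3 had the largest difference of the 10, 2.18-fold, and did not pass. Igf2, H19, the 3 receptor genes and the other 3 binding protein genes differed by 0.19 or less on the log2 scale, and none of them passed. The direction was higher in cKO for 7 and lower for 3. The median of their log2 fold changes was 0.11, where all genes tested had a median of −0.00085 and 49.8% of them were higher. At an unadjusted p under 0.05 were 3 of the 10 (Igf1, Igfbp3 and Insr), and 12.8% of all genes tested. DESeq2 called 1 of the 10 and limma-voom 0.

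**Figure D1:**
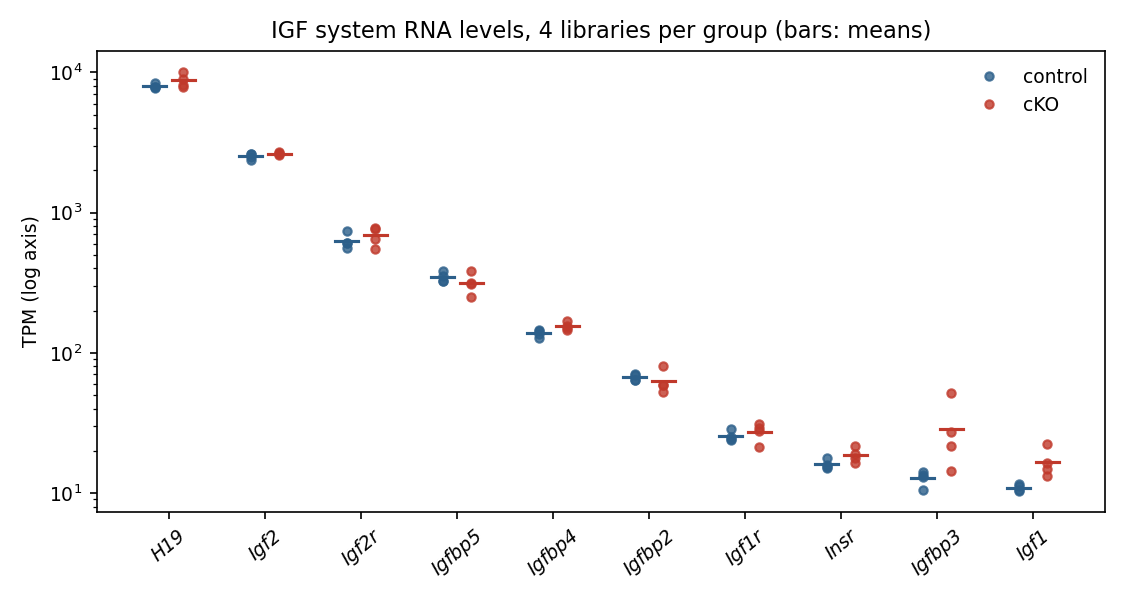
TPM of the 10 IGF system genes in each of 8 libraries on a log axis, ordered by the control mean, with control points in blue, cKO points in red and bars at the group means (n = 4 each). Control means span from 7982 TPM for H19 to 10.9 TPM for Igf1. Every cKO point of Igfbp3 and of Igf1 sits above every control point of the same gene, for Igfbp3 only just at the lowest cKO point.

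The levels of different genes can be compared only per length, so the order was read from the TPM that the authors deposited. H19 was highest, at 7982 ± 308 TPM in control (SD, n = 4) and 8796 ± 1009 TPM in cKO libraries. Igf2 followed at 2530 ± 129 TPM in control, and its clearance receptor gene Igf2r came next at 626 ± 76.8 TPM. The place of Igf2 in the order is uncertain, since its counts and its TPM did not match, as given below. The signalling receptor genes were far lower on this scale, Igf1r at 25.5 ± 2.25 TPM and Insr at 16.0 ± 1.20 TPM in control. Among binding proteins the control order was Igfbp5 (345 ± 27.5 TPM), Igfbp4 (138 ± 8.48), Igfbp2 (66.8 ± 3.26) and Igfbp3 (12.8 ± 1.58). Igf1 was lowest of the 10 at 10.9 ± 0.602 TPM. In the control libraries every neighbouring pair in this order was separated except Igfbp3 and Igf1, whose ranges overlapped. In the cKO libraries the ranges of Igf1r and Insr, of Insr and Igfbp3, and of Igfbp3 and Igf1 overlapped, with Igfbp3 at 28.8 ± 16.2 TPM and Igf1 at 16.7 ± 4.08 TPM.

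Igf1 (ENSMUSG00000020053.18, chr10:87858265-87937042, plus strand) encodes the ligand that signals mainly through IGF1R. Its level was 77.1, 55.6, 54.0 and 47.5 CPM in cKO libraries 1 to 4, and 38.3, 39.9, 44.4 and 39.2 CPM in control libraries 1 to 4. Every cKO library was above every control library, with cKO 1 standing well above the other 3 and cKO 4 close to the highest control. The log2 fold change was 0.53 ± 0.11 (SE; edgeR adjusted p = 0.0326), and the two-sided exact permutation p was 0.0286, the smallest that 4 against 4 can give. The fold change is under 1.5, so Igf1 is not among the genes that pass both thresholds. Without cKO 1 the log2 fold change was 0.38 and the call was lost (edgeR adjusted p = 0.0517). Without control 1, 2, 3 or 4 the call was lost as well (edgeR adjusted p = 0.127, 0.0865, 0.0612 and 0.126), while the log2 fold change stayed at 0.51, 0.54, 0.58 and 0.52. It was lost with limma-voom (adjusted p = 0.0646) and with limma on log2(TPM + 1) (adjusted p = 0.290). The call held without cKO 2, 3 or 4 (edgeR adjusted p = 0.0430, 0.0219 and 0.0074). Of 10 alternative settings with all libraries kept, 7 called Igf1, among them DESeq2 (adjusted p = 0.00067) and a stricter filter on low counts in edgeR (0.0491).

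Macrophage markers were also higher in the cKO libraries. Of 10 markers 9 were higher in cKO and 2 of them were called by edgeR, C1qb and C1qc, which encode complement subunits. None of the 10 had 0 counts throughout. At an unadjusted p under 0.05 were 9 of the 10, and DESeq2 called 4 and limma-voom 0. Over all genes tested, edgeR called 0.858% and 12.8% were at that p. Their summed level was 15.9 to 43.2 CPM in cKO and 12.5 to 18.2 CPM in control libraries. Their mean log2 CPM relative to the control mean was highest in cKO 1 (2.36), the library with the highest Igf1. In cKO 4, with the lowest Igf1 of its group, it came next (1.66), followed by cKO 2 (0.97) and cKO 3 (0.67). Control libraries were at −0.34 to 0.65, so cKO 3 was only just above them. The part of macrophage RNA in the Igf1 difference was not tested.

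Igf2, the more abundant ligand gene, was at 344, 389, 341 and 485 CPM in cKO libraries 1 to 4 and at 358, 414, 413 and 394 CPM in control libraries 1 to 4. The groups overlapped, with cKO 1 and 3 below and cKO 4 above every control. The log2 fold change was −0.02 ± 0.094 (SE; edgeR adjusted p = 0.968), and its sign turned in some settings, with 0.06 by limma on log2(TPM + 1) and −0.13 to 0.04 when 1 library was left out. The counts and the TPM of Igf2 did not match each other as those of the other members did. The transcript length at which its counts and its TPM would match was 292 bases on average, which is 6.17% of its longest annotated transcript (4730 bases) and under the shortest (376 bases), while for the other 9 members this share was 71.7% to 108%. Gm49394, a gene on the same strand at chr7:142650769-142669942 that shares Igf2 exons, had 0 counts in all 8 libraries although its TPM was 0.159 to 183. Whether reads over the shared exons were left out in counting, or the TPM was assigned to short isoforms, was not tested, so it is not known which of the tables gives the Igf2 level. As TPM, Igf2 was 2593, 2642, 2606 and 2689 in cKO libraries 1 to 4, and 2365, 2625, 2493 and 2639 in control libraries 1 to 4. On this scale cKO 1 and 3 lay within the control range and cKO 2 and 4 just above it. The means were 2633 ± 42.9 in cKO and 2530 ± 129 in control (SD, n = 4 each; exact permutation p = 0.229, two-sided). With the TPM of Gm49394 added, a sum chosen after seeing the data, they were 2697 ± 119 and 2655 ± 111 (exact permutation p = 0.6).

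**Figure D2:**
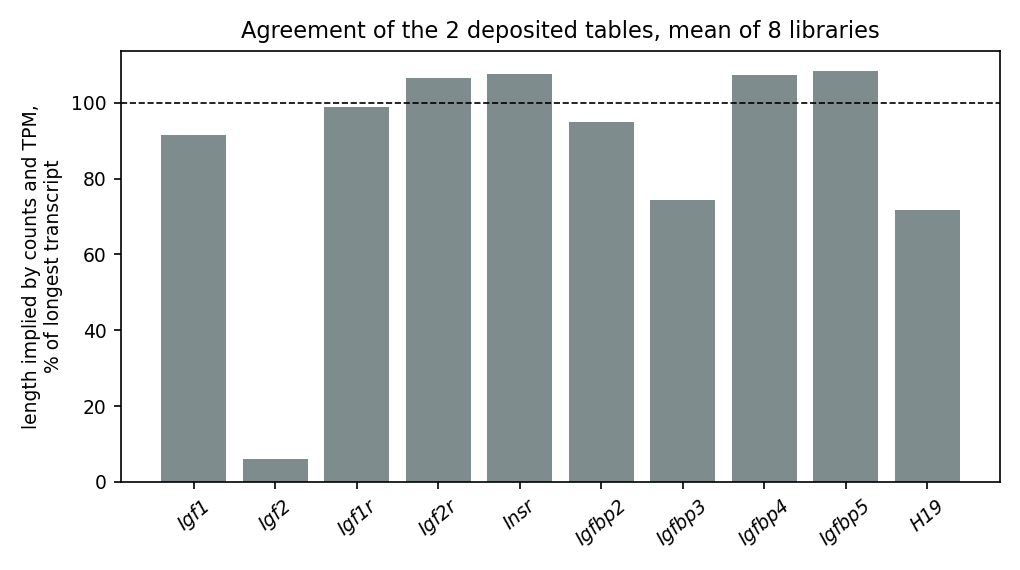
For each of the 10 genes, the transcript length at which the deposited counts and TPM match, as a percent of the longest annotated transcript (mean of 8 libraries; the dashed line is at 100%). The bar of Igf2 stands at 6.17%, while the other 9 stand between 71.7% and 108%.

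As a ratio within each library, Igf2 to Igf1 TPM was 115, 163, 176 and 204 in cKO libraries 1 to 4 and 229, 233, 216 and 253 in control libraries 1 to 4. On the TPM scale Igf2 was thus far above Igf1 in every library, and every cKO ratio was below every control ratio. These ratios rest on the Igf2 TPM, which its counts did not match, so their size is uncertain. The means were 164 ± 37.1 and 233 ± 15.3 (SD, n = 4 each; exact permutation p = 0.0286, 0.0714 after Benjamini-Hochberg adjustment over the 5 ratios and shares computed). The ratio is thus not called after adjustment.

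Among the receptor genes, Insr (ENSMUSG00000005534.10, chr8:3150922-3279617, minus strand), which encodes the insulin receptor, had the lowest p. Its level was 98.0, 91.3, 87.6 and 112 CPM in cKO and 82.6, 90.5, 85.1 and 82.3 CPM in control libraries 1 to 4. All cKO libraries but cKO 3 were above every control, cKO 2 only just. The log2 fold change was 0.19 ± 0.071 (SE; edgeR adjusted p = 0.248; unadjusted p = 0.0159). Igf1r (ENSMUSG00000005533.10, chr7:67952827-68233668, plus strand), the receptor gene for both ligands, was at 184, 176, 140 and 199 CPM in cKO and 160, 180, 158 and 168 CPM in control libraries 1 to 4. The groups overlapped, with the lowest and the highest library both cKO (log2 fold change 0.07 ± 0.086, SE; edgeR adjusted p = 0.811). Igf2r was at 3807, 3160, 2759 and 3760 CPM in cKO and 3078, 3535, 2829 and 3112 CPM in control libraries 1 to 4. The groups overlapped here too (log2 fold change 0.10 ± 0.095, SE; edgeR adjusted p = 0.744). Airn, the noncoding gene that overlaps Igf2r on the opposite strand, was at 0.19 ± 0.081 on the log2 fold change scale (edgeR adjusted p = 0.322), and since the library kit does not mark strand, reads where both genes overlap cannot be told apart.

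Igf1r and Insr, which encode receptors that also join into hybrids, varied together over the 8 libraries (Pearson r = 0.74, exact permutation p = 0.0237, adjusted p = 0.0710 over 3 pairs; Spearman rho = 0.74, adjusted p = 0.0688). Without cKO 3 and 4, the libraries farthest from the median of Igf1r, r was 0.85. On deviations from the group means r was 0.83. After adjustment the relation is not called on the log2 CPM scale, while on log2(TPM + 1) r was 0.80 (exact permutation p = 0.0120, adjusted p = 0.0360).

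None of the 4 binding protein genes passed the threshold, and their values are given in turn. Igfbp3 (ENSMUSG00000020427.11, chr11:7206086-7213923, minus strand), the gene of the main carrier of IGFs in adult serum, was at 36.9, 28.9, 19.8 and 70.05 CPM in cKO libraries 1 to 4 and at 18.4, 18.2, 14.8 and 20.1 CPM in control libraries 1 to 4. In CPM the cKO libraries other than cKO 3 were above every control, cKO 3 lay within the control range, and cKO 4 stood far above the rest. As TPM, cKO 3 (14.4) lay just above the highest control (14.2). The log2 fold change was 1.13 ± 0.26 (SE; edgeR adjusted p = 0.0559; exact permutation p = 0.0571), so that the gene is just outside the threshold. Without cKO 2, 3 or 4 it was inside (edgeR adjusted p = 0.0407, 0.0044 and 0.0455, with log2 fold changes of 1.25, 1.35 and 0.68), and without any of the other libraries its adjusted p was 0.118 to 0.159. Of 10 alternative settings with all libraries kept, 3 called it, each by edgeR. They were no filter on low counts (adjusted p = 4.31e-05), the replicate number as a block (0.0031) and log2 Xist CPM as a covariate (0.0425). Among those that did not were DESeq2 (adjusted p = 0.0647), limma-voom (0.129) and limma on log2(TPM + 1) (0.363). A stricter filter on low counts in edgeR did not call it either (adjusted p = 0.0751).

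**Figure D3:**
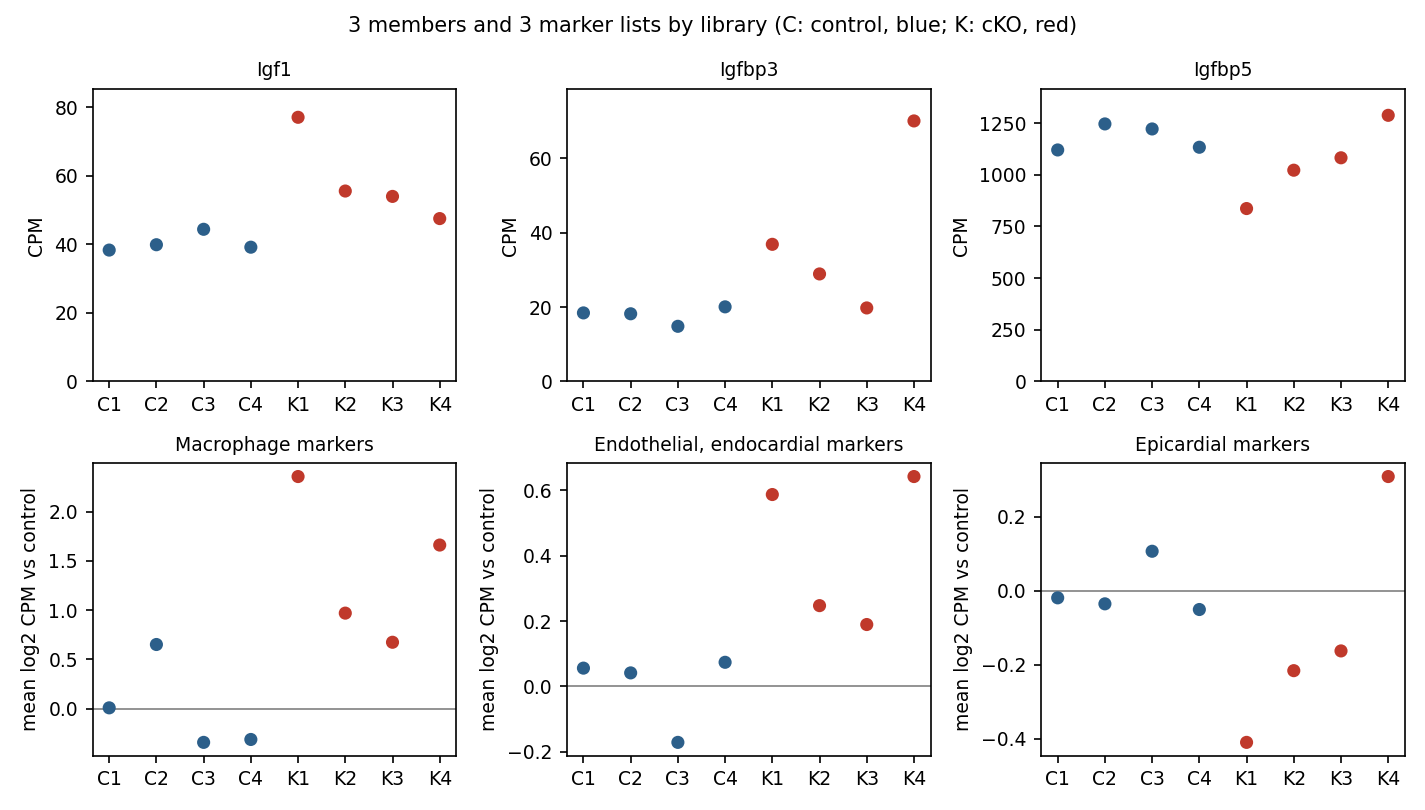
Level of Igf1, Igfbp3 and Igfbp5 in each library in CPM (top; axes start at 0) and, below, the mean log2 CPM of macrophage, endothelial and endocardial, and epicardial markers relative to the control mean; C1 to C4 are control (blue) and K1 to K4 cKO libraries (red). In Igfbp3 and the endothelial markers the cKO libraries have the order K4, K1, K2, K3, and in Igfbp5 and the epicardial markers K1 is lowest and K4 highest.

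Endothelial and endocardial markers had the same order of cKO libraries as Igfbp3. The order is not particular to them, since Igf1r, Insr and the imprinted gene Peg10 had it too. All 14 of 14 markers had the higher mean in cKO (median 0.37 on the log2 fold change scale). Of these 6 were called by edgeR, among them Emcn, Cdh5 and Pecam1, and none was at 0. DESeq2 called 12 and limma-voom 3, and 13 were at an unadjusted p under 0.05. Over all genes tested, edgeR called 0.858% and 12.8% were at that p. Their summed level was 2025 to 2559 CPM in cKO and 1594 to 1891 CPM in control libraries. Relative to the control mean their mean log2 CPM was 0.64 in cKO 4, 0.59 in cKO 1, 0.25 in cKO 2 and 0.19 in cKO 3. The part of endothelial RNA in the Igfbp3 difference was not tested.

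Igfbp5 (ENSMUSG00000026185.8, chr1:72857932-72874884, minus strand), the most abundant binding protein gene, was at 837, 1022, 1082 and 1288 CPM in cKO and 1120, 1246, 1222 and 1133 CPM in control libraries 1 to 4. Its neighbour Igfbp2 (ENSMUSG00000039323.18, chr1:72824503-72852474, plus strand), whose 3′ end faces that of Igfbp5, was at 42.2, 42.9, 39.5 and 57.5 CPM in cKO and 48.8, 49.8, 48.5 and 53.2 CPM in control libraries 1 to 4. In both genes cKO 1, 2 and 3 were below every control and cKO 4 was above every control. Neither passed: the log2 fold change was −0.16 ± 0.096 for Igfbp5 (SE; edgeR adjusted p = 0.549) and −0.14 ± 0.094 for Igfbp2 (SE; edgeR adjusted p = 0.613). Without cKO 4, Igfbp2 was called lower in cKO (log2 fold change −0.26, edgeR adjusted p = 0.0495), and Igfbp5 was at −0.26 and was not called. Over the 8 libraries the pair had a Pearson r of 0.70 (exact permutation p = 0.0483, adjusted p = 0.0725 over 3 pairs) and a Spearman rho of 0.81 (adjusted p = 0.0653), and r was 0.78 without cKO 3 and 4 and 0.62 on deviations from the group means. On log2 CPM the sign differed between the groups, positive within the 4 cKO libraries and negative within the 4 controls.

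Epicardial markers had the same split among cKO libraries as these genes. Their mean log2 CPM relative to the control mean was −0.41, −0.22 and −0.16 in cKO 1, 2 and 3 and 0.31 in cKO 4, beside −0.05 to 0.11 in control libraries. Of the 10 markers 7 were lower in cKO, 0 were called by edgeR (2 at an unadjusted p under 0.05, 2 called by DESeq2), and none was at 0, with a summed level of 368 to 557 CPM in cKO and 468 to 499.5 CPM in control libraries. Among all 26820 genes tested, edgeR called 0.858% and DESeq2 867, and 12.8% were at that p. The groups did not overlap at 1 of the 10 (6.91% of all genes), Tbx18, with 48.1 to 65.4 CPM in cKO and 69.6 to 77.4 CPM in control libraries. The part of epicardial RNA in the values of Igfbp2 and Igfbp5 was not tested.

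Igfbp4 (ENSMUSG00000017493.12, chr11:99041244-99054392, plus strand), whose product binds IGFs until it is cleaved by pappalysin, was at 313, 323, 317 and 353 CPM in cKO and 324, 300, 278 and 300 CPM in control libraries 1 to 4. The groups overlapped at control 1, with cKO 4 above every control (log2 fold change 0.12 ± 0.061, SE; edgeR adjusted p = 0.439).

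**Figure D4:**
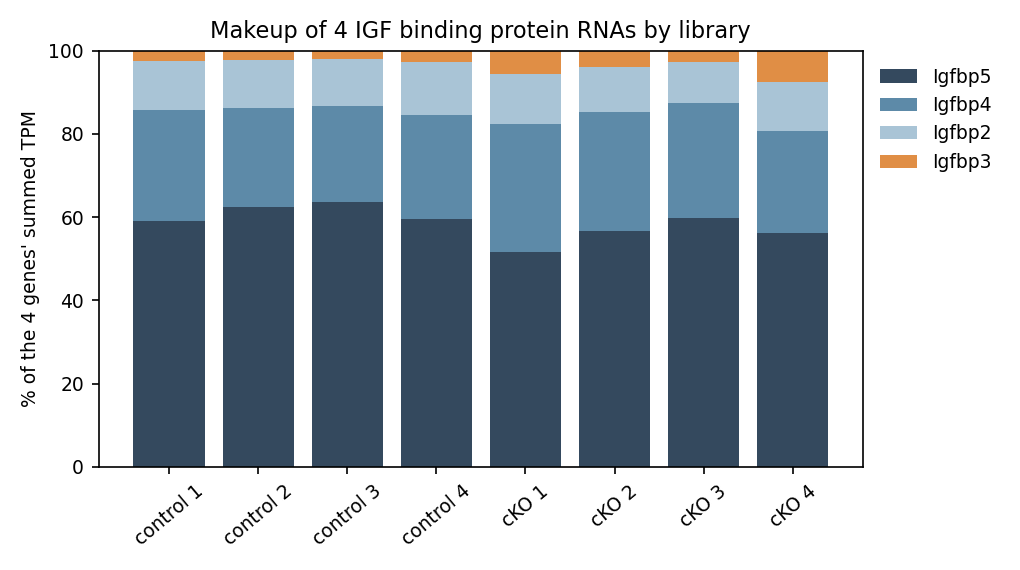
Share of each of 4 binding protein genes in their summed TPM, in percent, by library. The Igfbp3 segment is 1.89% to 2.61% of the sum in control and 2.72% to 7.58% in cKO libraries, and Igfbp5 is the largest segment in every library.

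The makeup of the binding protein RNA was compared as shares of the 4 genes' summed TPM. Igfbp3 took 5.61%, 4.002%, 2.72% and 7.58% in cKO libraries 1 to 4 and 2.38%, 2.21%, 1.89% and 2.61% in control libraries 1 to 4, so the groups did not overlap. The means were 4.98% ± 2.10 and 2.27% ± 0.301 (SD, n = 4 each; exact permutation p = 0.0286, adjusted p = 0.0714 over 5 ratios and shares). Igfbp5 took 56.1% ± 3.36 in cKO and 61.2% ± 2.23 in control (exact permutation p = 0.0857, adjusted p = 0.107), Igfbp4 27.8% ± 2.56 and 24.6% ± 1.67 (the same p-values), and Igfbp2 11.1% ± 0.969 and 11.9% ± 0.589 (exact permutation p = 0.257). None of these shares is called after adjustment.

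**Figure D5:**
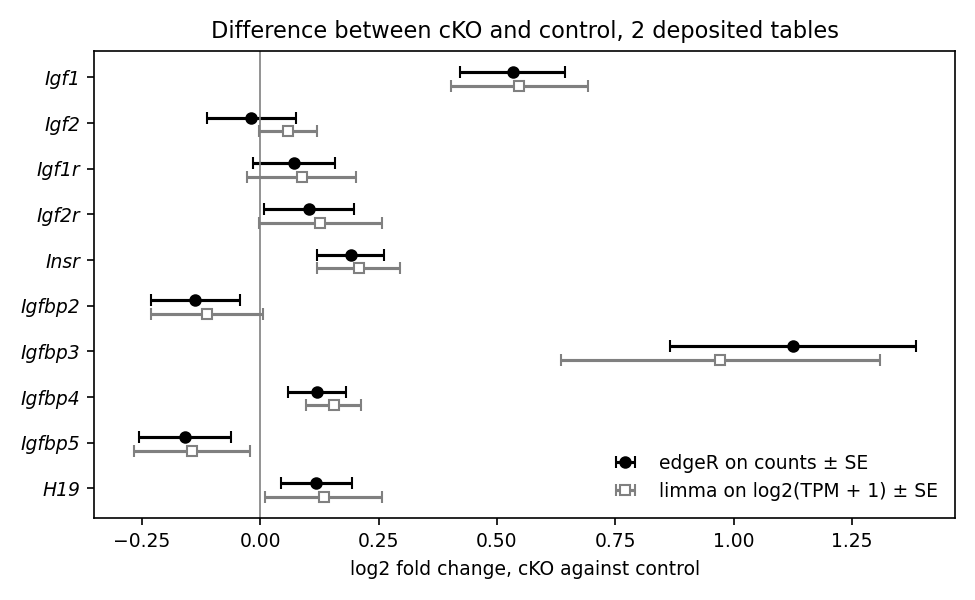
log2 fold change of the 10 genes, cKO against control, with SE, from edgeR on the counts (black circles) and from limma on log2(TPM + 1) (open squares). Igfbp3 (1.13) and Igf1 (0.53) stand apart from the other 8, whose edgeR values lie between −0.16 and 0.19, and both tables place the genes in a similar order except that Igf2 lies on opposite sides of 0.

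H19 was at 8661, 7580, 8159 and 9828 CPM in cKO and 7840, 7506, 8340 and 7841 CPM in control libraries 1 to 4. The groups overlapped, with cKO 1 and 4 above every control (log2 fold change 0.12 ± 0.075, SE; edgeR adjusted p = 0.573). Although they share a locus, Igf2 and H19 did not vary together detectably over the 8 libraries. Pearson r was 0.45 (exact permutation p = 0.294) and Spearman rho was 0.02. The r was −0.48 without cKO 3 and 4, and 0.57 on deviations from the group means. On log2(TPM + 1) r was 0.36 (exact permutation p = 0.320), and 0.43 without control 1 and 3. Ranked over 14301 genes with a mean of at least 1 CPM, the genes whose log2 CPM was most like that of Igf2 were E2f3 (r = 0.97), Tcf7l1 (0.95) and Arhgap17 (0.95), and for H19 they were Kctd10, Nppa and Csf2rb2 (0.97 each), over 8 libraries. These are the highest of many correlations and are given as a description. Those of Igf2 rest on its counts, which its TPM did not match.

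Of the 14 tested genes that start within 250 kb of the start of H19 or Igf2, members left out, edgeR called 0, with 1 at an unadjusted p under 0.05 and 1 called by DESeq2. That gene was Tnnt3, which encodes the fast skeletal troponin T and was at 9.504, 11.4, 7.90 and 9.35 CPM in cKO and 7.11, 7.76, 5.64 and 7.73 CPM in control libraries 1 to 4. Its groups did not overlap (log2 fold change 0.43 ± 0.13, SE; edgeR adjusted p = 0.140). Igf2os, the antisense gene of Igf2, was at −0.06 on the same scale (adjusted p = 0.721), with the limit that strand is not marked. Near Igfbp2 and Igfbp5, 0 of 4 neighbours were called by edgeR and by DESeq2, and 0 were at an unadjusted p under 0.05. The groups did not overlap at 1 of them, Smarcal1, with 41.7 to 43.5 CPM in cKO and 38.6 to 41.2 CPM in control libraries. Its log2 fold change was 0.08 (edgeR adjusted p = 0.593). Over all genes tested the groups did not overlap at 6.91%.

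Around the 10 members, 69 further genes of the pathway were read from a list, and 67 of them were tested, since Ins1 and Ins2 had 0 counts in every library. Of the 67, 31 were higher and 36 lower in cKO (median −0.04 on the log2 fold change scale). edgeR called 2, both higher and both metalloproteinases that cleave IGF binding proteins, and 12 of the 67 were at an unadjusted p under 0.05, beside 0.858% called and 12.8% at that p over all genes tested. DESeq2 called 5 of them, and 867 genes in all. The groups did not overlap at 10 of the 67, beside 6.91% of all genes.

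Pappa (chr4:65124174-65357509, plus strand) encodes pappalysin-1, which cleaves IGFBP4 and thereby frees bound IGF. It was at 23.2, 25.9, 15.9 and 20.3 CPM in cKO and 10.7, 12.4, 11.0 and 11.2 CPM in control libraries 1 to 4. Every cKO library was above every control, with cKO 3 the lowest of its group. The log2 fold change was 0.91 ± 0.12 (SE; edgeR adjusted p = 0.00253), and the gene was called whichever library was left out, in 8 of 8 fits, with log2 fold changes of 0.81 to 1.03. On log2(TPM + 1) limma called 0 of the 67, and 2 genes in all.

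Adam12 (chr7:133883199-134225097, minus strand), whose product cleaves IGFBP3 and IGFBP5, was at 41.8, 43.9, 38.4 and 40.1 CPM in cKO and 32.6, 35.6, 30.7 and 32.6 CPM in control libraries 1 to 4. The groups did not overlap (log2 fold change 0.32 ± 0.066, SE; edgeR adjusted p = 0.0295), and the call was lost in 5 of 8 fits that left out a library, with values of 0.29 to 0.37. The pappalysin inhibitor genes Stc1 (0.43 ± 0.17, adjusted p = 0.279) and Stc2 (0.49 ± 0.25, adjusted p = 0.452) did not pass in the same edgeR fit.

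The signalling genes downstream of the receptors were tested in the same fit. Of 26 PI3K, AKT and mTOR genes edgeR called 0, with 5 at an unadjusted p under 0.05 (12.8% of all genes tested), and DESeq2 called 2. The groups did not overlap at 5 of the 26 (6.91% of all genes), Pik3r2, Akt1, Akt2, Rheb and Gsk3a. The genes with the lowest p were Pik3r2, a regulatory subunit of PI3K (log2 fold change −0.22, adjusted p = 0.0703), Akt2 (−0.19, adjusted p = 0.118) and the mTOR activator Rheb (−0.20, adjusted p = 0.143). Of 13 adaptor and feedback genes 0 were called by edgeR and by DESeq2, and 3 were at an unadjusted p under 0.05, Gab1 (−0.16, adjusted p = 0.194), Grb14 (−0.22, adjusted p = 0.229) and the imprinted adaptor Grb10 (−0.14, adjusted p = 0.282). Of 11 RAS and ERK genes 0 were called by edgeR and 1 by DESeq2, and 1 was at an unadjusted p under 0.05, Map2k2 (−0.15, adjusted p = 0.184), beside Hras (−0.10, adjusted p = 0.537) and Sos2 (0.09, adjusted p = 0.654).

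The other binding protein genes and the Igf2 mRNA-binding protein genes gave no call. Of 6 other binding protein genes 0 were called by edgeR and by DESeq2, and 0 were at an unadjusted p under 0.05. The lowest p among them were those of Kazald1 (log2 fold change 0.71, at 0.387 CPM in control), Igfbp7 (0.25, at 5.97 CPM) and Igfbpl1 (−0.08, at 77.2 CPM). The genes of the 3 proteins that bind Igf2 mRNA were abundant, Igf2bp1 at 275 ± 12.8, Igf2bp2 at 229 ± 14.1 and Igf2bp3 at 114 ± 8.25 CPM in control (SD, n = 4). Their log2 fold changes were 0.02, −0.02 and −0.11, and 0 of 3 were called by edgeR and by DESeq2, with 0 at an unadjusted p under 0.05. Insrr, the insulin receptor-related gene, was at or under 0.143 CPM in every library.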

How the data were processed

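PolyA RNA of ventricular tissue was measured in 8 libraries. The authors deposited raw counts per gene without normalization and, in a second table, TPM that they computed per transcript length. Their processing notes name Trim Galore 0.6.7, HISAT2 2.2.1, StringTie 2.2.1 and featureCounts, and the methods nf-core/rnaseq 3.14.0 and GRCm39; strand setting is not given in the sources used here. Of 37850 genes, 85.8% of deposited starts lay within 1000 bases of GRCm38 starts and 3.26% of GRCm39 starts.

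Counts were tested with edgeR 4.0.16 in R 4.3.3 (quasi-likelihood F test, TMM, condition only), with Benjamini-Hochberg adjustment over 26820 genes. CPM on the log2 scale has a prior count of 2. Exact permutation tests were two-sided over 70 groupings. Alternatives used DESeq2 1.42.0, limma 3.58.1, other filters, a replicate block, log2 Xist CPM, hemoglobin genes left out, TPM with pseudocounts of 1 and 0.1, and each library left out. Implied length was checked on 937 genes with a single transcript, of which 64.8% fell within 1.5-fold. The methods were tested on simulated data.

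Named genes were the members, list genes that passed or, where none did, the 3 with the lowest p, locus neighbours, the 3 genes most like Igf2 and H19, and Pkn2. Members and lists, cell type markers included, were chosen with earlier results of these data known. Stc1, Stc2, Igf2os and Airn were named for their role, and Akt1, Gsk3a, Nkx2-5 and the marker genes after their values were seen.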

Additional observations from a re-analysis of the deposited data

How the results depend on the processing

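Over all genes, 230 calls became 867 with DESeq2, 878 with no filter on low counts, 2 with limma on log2(TPM + 1), 5 with limma on log2(TPM + 0.1), and 67 to 744 when 1 library was left out. Of the 10 members 1 was called, against 0 with limma-voom, 2 with no filter, 2 with log2 Xist CPM as a covariate, 0 with either TPM pseudocount, and 0 to 3 when 1 library was left out. Of the pathway genes 2 were called, against 5 with DESeq2, 0 with either TPM pseudocount, and 1 to 5 when 1 library was left out. With the replicate block 380 genes and 2 members, Igf1 and Igfbp3, were called. The replicate numbers were not taken as a pairing: correlations of same-numbered libraries over 14302 genes were −0.19, −0.03, 0.01 and −0.14, and no library correlated best with its own number.

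The log2 fold change of Igf2, near 0, turned sign with limma on log2(TPM + 1) (0.0584) and log2(TPM + 0.1) (0.0585), with the TPM of Gm49394 added (0.0228), and when cKO 1 or 3 or control 2 or 3 was left out (range −0.135 to 0.0422 over 8 such fits). The other 9 members kept their direction in all settings. With 1 library left out, the cKO minus control difference was 1.84 to 3.46 percentage points for the Igfbp3 share, −6.37 to −3.66 for the Igfbp5 share and −81.3 to −51.8 for the Igf2 to Igf1 ratio. The exact permutation p of the first and last was 0.0571 without any control, and that of the Igfbp5 share 0.0286 without cKO 3. The Igfbp2 and Igfbp5 relation on log2(TPM + 1) had r = 0.67 (exact permutation p = 0.0616, adjusted p = 0.0923 over 3 pairs). Spearman rho was 0.83 on that scale (exact permutation, adjusted p = 0.0461). Within the 4 controls its Pearson r was 0.33 on that scale and −0.38 on log2 CPM. Causes of these shifts were not tested. Depth limits Kazald1 and Insrr, which had few counts.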

Other observations

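Igf2, H19 and Igf2r are imprinted in the mouse, and 27 other imprinted genes were read from a list in the same edgeR fit. Of these, 2 were called, both higher in cKO, and 12 were at an unadjusted p under 0.05, beside 0.858% called and 12.8% at that p over all genes tested. DESeq2 called 4 of them. Peg10, a retrotransposon-derived gene, was at 269, 246, 176 and 328 CPM in cKO and 141, 151, 145 and 155 CPM in control libraries 1 to 4. The groups did not overlap, with cKO 4 highest (log2 fold change 0.78 ± 0.13, SE; edgeR adjusted p = 0.00808), and the call held in 8 of 8 fits that left out a library. Asb4, which lies near it on chromosome 6, was at 134, 108, 91.7 and 129 CPM in cKO and 75.8, 78.7, 86.0 and 80.0 CPM in control libraries 1 to 4, also without overlap (0.53 ± 0.094, SE; edgeR adjusted p = 0.0139), and its call was lost in 3 of 8 such fits. Of the list, 11 genes had the higher mean in cKO and 16 the lower, none of the 16 called, with a median of −0.03.

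Genes that FOXO factors are known to regulate, which AKT signalling lowers, were read from a list of 16. Of the 16, 5 were higher and 11 lower in cKO (median −0.09 on the log2 fold change scale). edgeR called 0 (0.858% of all genes tested), with 3 at an unadjusted p under 0.05 (12.8% of all genes tested), and DESeq2 called 1. Fbxo32, a muscle ubiquitin ligase gene, was at 0.22 ± 0.064 (log2 fold change, SE; edgeR adjusted p = 0.119), while Pdk4 (−0.20, adjusted p = 0.317) and Trim63 (−0.16, adjusted p = 0.338) lay on the other side of 0.

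Other marker lists were read beside the members. Erythroid markers were higher in cKO at 9 of 9 genes with 0 called by edgeR and by DESeq2 and 0 at an unadjusted p under 0.05, and their summed level ranged over 1371 to 4811 CPM in cKO and 1502 to 4657 CPM in control libraries. Hepatic and yolk sac markers were lower at 9 of 10 tested genes, with 0 called by edgeR, 7 at an unadjusted p under 0.05 and 2 called by DESeq2, and control 1 stood apart (summed level 50.2 CPM against 15.02 to 22.6 CPM in the other libraries). Neural markers were higher at 6 of 7 tested genes, with Nes called (log2 fold change 0.64, edgeR adjusted p = 0.00426), 2 at an unadjusted p under 0.05 and 2 called by DESeq2. The mean log2 CPM of the neural markers relative to the control mean was −0.15, 0.69, 0.49 and 0.42 in cKO libraries 1 to 4. It was −0.15 to 0.07 in control libraries, so cKO 1 was not above them. Cushion and other mesenchyme markers (5 of 12 higher) and smooth muscle and pericyte markers (5 of 8 higher) had 0 called by edgeR, with 2 and 3 at an unadjusted p under 0.05 and 1 and 0 called by DESeq2. Beside these counts, edgeR called 0.858% of all 26820 genes tested and DESeq2 called 867, and 12.8% were at that p.

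Chosen after their values were seen, the genes most like Igf1 over the 8 libraries were 5033428I22Rik (r = 0.98), Sgca (0.97) and Fblim1 (0.96), and those most like Igfbp3 were Ankrd50, Dlgap4 (0.99 each) and Cemip2 (0.98), of 14301 genes ranked.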
